A study of Mus musculus with 15 samples.

Results

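The 9 myelin genes Mbp, Mog, Mag, Mobp, Cnp, Mal, Opalin, Ugt8a and Cldn11 were taken by name from 32285 genes counted in single nuclei of the mouse dorsal hippocampal formation (dHF). Their levels were described in the oligodendrocyte lineage by stage and by group, with neurons and microglia as a floor. That floor was taken as the level that free RNA gives. Whether these classes express some of the members themselves was not tested. Single-nucleus RNA-seq was made from dHF tissue punches of 15 female C57BL6/J mice. The NP group held 6 virgin females matched for age to the dams. The control RE group (ControlPP in the labels; RE stands for reproductive experience) held 4 dams that were bred, gave birth, nursed and weaned their pups. The stress RE group (StressPP) held 5 dams that went through the same events with daily pup separation and limited nesting material added after birth. Tissue was taken after weaning, so the data hold 1 time point. The samples carry 3 batch numbers, without a word on what was batched, and batch 1 held no control RE mouse. The paper describes nuclei processed in batches that each held every group, which batch 1 does not match.

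Myelin is the lipid-rich, multilayered membrane that oligodendrocytes wrap around axons, and its genes are switched on as oligodendrocyte progenitor cells (OPCs) pass through a newly formed stage to become mature oligodendrocytes. The members fall into structural proteins of compact myelin (Mbp, Mobp), proteins of the outer or axon-facing membrane and its loops (Mog, Mag, Cnp), membrane and junction proteins (Mal, Opalin, Cldn11) and an enzyme of myelin lipid synthesis (Ugt8a). MBP holds the cytoplasmic faces of the membrane together, MOBP is another basic protein of compact myelin, MAG lies at the contact with the axon, MOG lies on the outermost surface, CNP keeps cytoplasmic channels open, MAL sorts proteins and lipids to the membrane, OPALIN is a glycoprotein of oligodendrocyte membranes, claudin 11 forms the tight junctions of the sheath and UGT8A makes galactosylceramide.

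Promoters of 8 of the 9 members were read from RefSeq (GRCm38.p6) over 300 bases, from 250 before to 50 after the start. The 5 printed here are those of Ugt8a, the member whose OPC level lay above the floor of free RNA, of Cnp, next in OPCs but not above that floor, and of Mal, Opalin and Mog, the 3 members lowest in newly formed oligodendrocytes, all relative to the gene's own oligodendrocyte level. Capitals mark matches, on either strand, to the letters ACAAAG (a SOX-type motif) and CTGGNAC (a MYRF-type motif, GTNCCAG on the other strand). All are written 5′ to 3′ on the gene's strand.
Ugt8a, chr3:125938603-125938902, minus strand: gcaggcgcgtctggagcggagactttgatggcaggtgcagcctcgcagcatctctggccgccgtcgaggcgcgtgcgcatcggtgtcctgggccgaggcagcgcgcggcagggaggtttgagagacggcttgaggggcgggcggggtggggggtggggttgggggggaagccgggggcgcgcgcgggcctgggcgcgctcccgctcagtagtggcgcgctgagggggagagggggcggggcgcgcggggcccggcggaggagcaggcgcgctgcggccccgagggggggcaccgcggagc
Cnp, chr11:100574689-100574988, plus strand: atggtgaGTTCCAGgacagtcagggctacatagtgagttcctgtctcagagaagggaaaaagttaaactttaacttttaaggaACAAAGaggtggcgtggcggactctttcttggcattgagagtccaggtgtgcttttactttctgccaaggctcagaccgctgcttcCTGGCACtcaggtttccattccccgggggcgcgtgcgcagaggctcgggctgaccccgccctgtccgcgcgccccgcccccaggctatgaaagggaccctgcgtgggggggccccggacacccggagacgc
Mal, chr2:127656646-127656945, minus strand: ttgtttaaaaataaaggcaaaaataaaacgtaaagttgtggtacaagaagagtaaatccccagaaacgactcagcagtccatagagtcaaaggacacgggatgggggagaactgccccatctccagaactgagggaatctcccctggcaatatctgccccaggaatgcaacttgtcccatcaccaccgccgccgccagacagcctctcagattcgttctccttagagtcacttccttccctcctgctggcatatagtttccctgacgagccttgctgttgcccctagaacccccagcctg
Opalin, chr19:41077064-41077363, minus strand: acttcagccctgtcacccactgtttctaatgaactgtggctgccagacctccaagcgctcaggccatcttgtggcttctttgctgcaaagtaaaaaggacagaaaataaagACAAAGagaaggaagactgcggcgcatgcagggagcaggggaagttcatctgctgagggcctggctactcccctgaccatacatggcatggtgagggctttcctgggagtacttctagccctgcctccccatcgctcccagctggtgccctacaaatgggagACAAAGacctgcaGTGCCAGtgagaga
Mog, chr17:37023349-37023648, minus strand: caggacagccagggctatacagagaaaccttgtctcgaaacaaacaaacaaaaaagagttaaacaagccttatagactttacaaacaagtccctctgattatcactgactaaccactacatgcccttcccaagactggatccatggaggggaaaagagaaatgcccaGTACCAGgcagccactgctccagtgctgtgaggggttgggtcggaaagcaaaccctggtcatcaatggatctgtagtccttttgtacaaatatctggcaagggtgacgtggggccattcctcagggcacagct

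The Ugt8a promoter was 78.3% G and C with 40 CpG pairs and held 0 matches, and 98.2% of 32851 mouse promoters of the same length had a lower G and C share. The Cldn11 promoter was 66.3% G and C with 24 CpG pairs and also held 0 matches. The Cnp promoter was 59.7% G and C with 17 CpG pairs and held 1 SOX-type and 2 MYRF-type matches. The Opalin promoter held 2 SOX-type matches and 1 MYRF-type match with 4 CpG pairs, and the Mog promoter 1 MYRF-type match with 3. The Mobp promoter held 6 SOX-type matches, and that of Mal held 0 with 8 CpG pairs. Of 3 windows given for Mag, 2 held 1 SOX-type and 2 MYRF-type matches each and the other held 0. A variant of the SOX-type letters, ACAATG, occurred in none of these windows, against 12.6% of all promoters. Over all promoters, 18.7% held the SOX-type letters and 19.3% the MYRF-type letters, and the median promoter had 7 CpG pairs. These matches are a description of the letters in the window.

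The genes themselves are given in the build of the files (GRCm38). Mbp lay at chr18:82475146-82585637 on the plus strand and Mobp at chr9:120149707-120181484 on the plus strand. Mog lay at chr17:37010743-37023398, Mag at chr7:30899176-30914873, Mal at chr2:127633226-127656695, Opalin at chr19:41061710-41077113 and Ugt8a at chr3:125865271-125938619, all on the minus strand. Cnp lay at chr11:100574904-100591729 and Cldn11 at chr3:31149920-31164324, both on the plus strand. Counts were per gene, so transcript forms of a gene (such as the golli forms of Mbp) were not separated, in the floor classes included. Cnp shared 8912 bases with Dnajc7 on the opposite strand, 154 of them exonic in both, and Mobp shared 2447 bases with Gm38642 on its own strand, 79 of them exonic in both. The count of Mobp is therefore less certain in the shared part.

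After filtering, 123913 nuclei remained, from 5468 to 11438 per mouse, and library totals ran from 40602582 to 96211264 unique molecular identifiers (UMIs, each one counted transcript). Nuclei were clustered without the 9 members, and clusters were named from other marker genes, so that the members' levels did not make the classes. The lineage held 32905 nuclei, of which 3164 were OPCs, 336 newly formed oligodendrocytes and 29018 oligodendrocytes. A sub-cluster of 387 nuclei with all 14 oligodendrocyte markers detected and with Prom1 as its leading gene took no name and is called the Prom1-high sub-cluster. Prom1 was also among the leading genes of newly formed oligodendrocytes, at 236 CPM against 280.1 CPM in the sub-cluster, so the name does not set the classes apart. All 10 markers of newly formed oligodendrocytes, among them Bmp4, Gpr17 and Enpp6, were detected in the class of that name. Between 187 and 423 barcodes per library also occurred in another library. A cluster of 738 nuclei with both oligodendrocyte and neuron markers was left out. Libraries of NP replicate 2 and stress RE replicate 3 correlated least with the others in their profiles (median r of 0.927 and 0.916, against up to 0.973), and the members' counts and medians in the comparisons of stress RE are also given without them. Levels are a gene's UMIs scaled to the UMIs of the class in a mouse (CPM), and since a gene's CPM depends on how its transcripts are captured, genes are compared as a percent of their own oligodendrocyte level.

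In oligodendrocytes all 9 members were far above both floor classes in 15 of 15 mice, and OPCs held little beyond the floor except for Ugt8a. Mbp was at 3693 ± 638 CPM in oligodendrocytes (SD, n = 15), against 55.3 ± 9.89 in neurons and 94.9 ± 27.6 in microglia. Mobp was at 1169 ± 122 CPM, Mag at 897 ± 162, Ugt8a at 790 ± 122 and Mog at 699 ± 88.4. Mal was at 661 ± 215 CPM, Cldn11 at 409 ± 68.1, Opalin at 332 ± 47.2 and Cnp at 328 ± 114. The median fold over neurons ran from 34.0 for Cnp to 241 for Mog, and over microglia from 11.3 for Cnp to 47.5 for Mog. By fold, Cnp stood the least above both floors. The floor itself differed between the classes used for it. Neurons held 0.510% (Mobp) to 3.15% (Cnp) of a gene's oligodendrocyte level and microglia 2.00% (Mobp) to 8.79% (Cnp), and microglia were above neurons for all 9 members in 15 of 15 mice. The 9-gene sum was 99.2 ± 21.4 CPM in neurons and 267 ± 71.9 CPM in microglia.

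**Figure D1:**
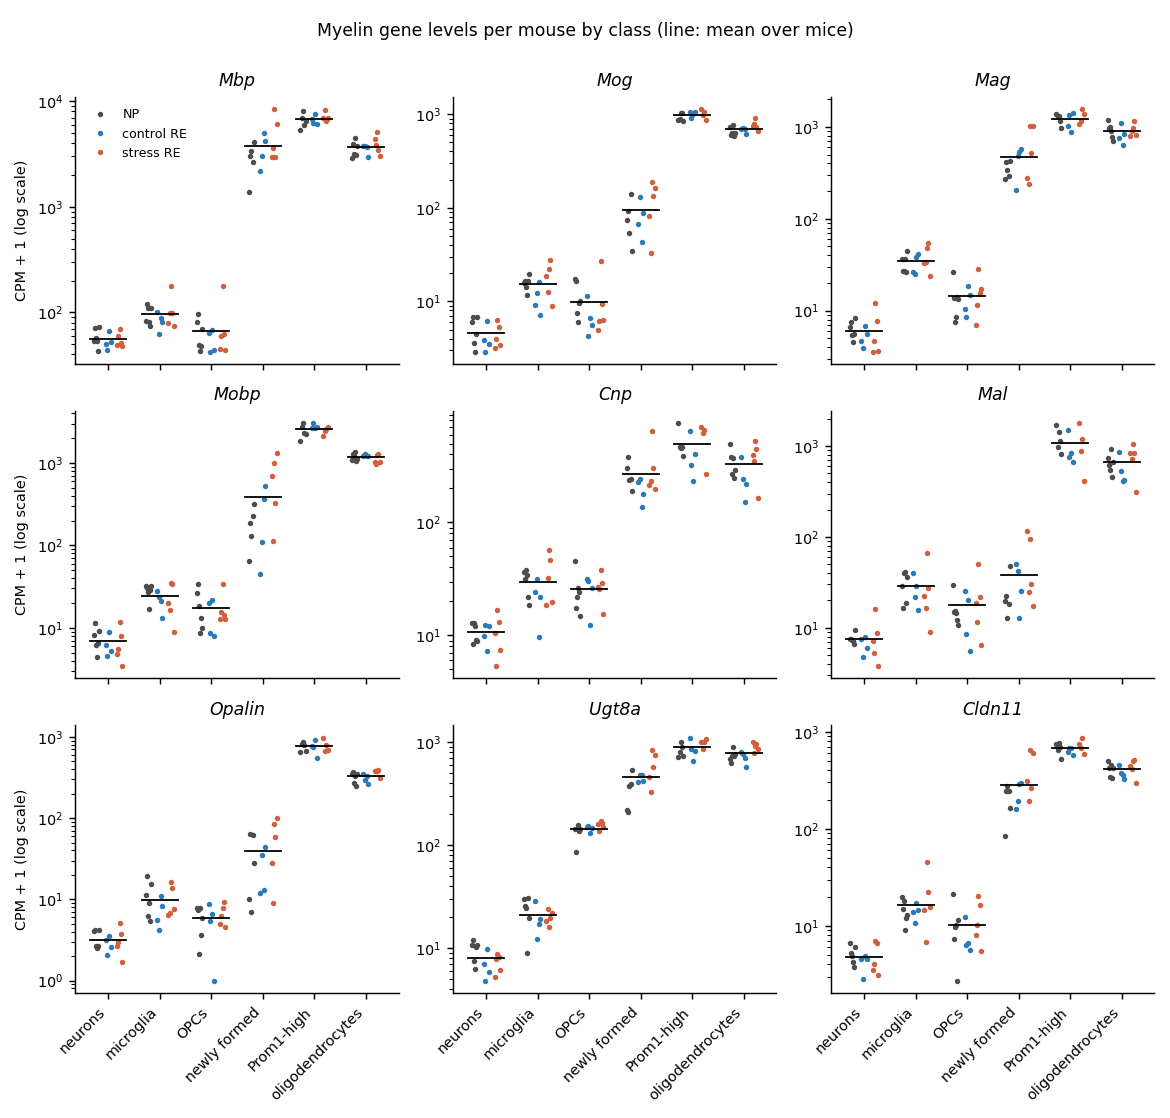
Level of each myelin gene (CPM, log axis) per mouse in OPCs, newly formed oligodendrocytes, the Prom1-high sub-cluster, oligodendrocytes, neurons and microglia, with colours for the groups and a line at the mean over mice. Ugt8a is the gene whose OPC values (84.4 to 170 CPM) lie above microglia in all 15 mice, and Mal in newly formed oligodendrocytes (11.9 to 114 CPM) lies closest to the floor.

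Ugt8a, the galactosylceramide synthase, was the member with a level in OPCs above the floor. It was at 144 ± 19.7 CPM there (SD, n = 15; 84.4 to 170), which was 18.4% ± 2.57 of its oligodendrocyte level, 21.7-fold the neuron level and 7.60-fold the microglia level at the median, and above microglia in 15 of 15 mice. The other 8 members lay between 1.26% (Mog) and 7.80% (Cnp) of their oligodendrocyte level in OPCs. Against neurons 7 of those 8 were higher in 13 to 15 mice and Mbp in 8, but against microglia they were higher in 0 (Mag) to 6 (Cnp) of 15 mice, so their OPC levels did not pass the higher of the floors. Ugt8a made up 49.1% of the 9-gene sum in OPCs and 8.83% in oligodendrocytes. Mbp made up 20.7% of that sum in OPCs and 41.0% in oligodendrocytes.

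The share of nuclei with at least 1 UMI told the same of Ugt8a at equal depth. Median depth was 4448 UMIs in OPCs, 10315 in neurons and 2062 in microglia. With each nucleus thinned to 1000 UMIs, Ugt8a was seen in 12.5% ± 2.54 of OPCs (44.7% unthinned), in 0.843% of neurons (7.06% unthinned) and in 1.90% of microglia (4.55% unthinned). Mbp was seen in 4.92% ± 1.96 of thinned OPCs, 5.81% of thinned neurons and 8.65% of thinned microglia. Unthinned, Mbp was seen in 40.1% of neurons, which were the deepest of these classes. Thinning left out 20 OPCs, 116 neurons and 141 microglia with fewer than 1000 UMIs.

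In newly formed oligodendrocytes the members were at very different points of their range. Mbp was at 104% ± 43.04 of its oligodendrocyte level (SD, n = 14 mice with at least 10 such nuclei) and Cnp at 84.0% ± 22.5. Cldn11 was at 73.2% ± 46.6, Ugt8a at 58.8% ± 18.3 and Mag at 54.2% ± 31.6. Mobp was at 34.6% ± 36.1, Mog at 13.5% ± 6.78, Opalin at 11.9% ± 9.52 and Mal at 5.43% ± 3.18. The order of neighbours such as Cldn11, Ugt8a and Mag was within their spread over mice. With doublets kept, Mog was at 21.9% ± 10.6 and Opalin at 26.3% ± 17.0, so the order of these 2 turned. Nuclei were clustered anew for that alternative, so the class was not the same. It held 433 nuclei, and no Prom1-high sub-cluster was set apart. The means also pool groups whose own means lay apart, with wide spreads. Mobp was at 16.2% ± 8.88 in NP (n = 5), 21.3% ± 18.4 in control RE (n = 4) and 63.5% ± 47.6 in stress RE (n = 5). Cldn11 was at 53.4%, 64.5% and 100.04% in the same order. Mal, the membrane sorting protein, was at 37.2 ± 31.2 CPM and above microglia in 10 of 14 mice, 1.35-fold at the median, whereas Mbp was 37.2-fold the microglia level. Mbp made up 64.9% of the 9-gene sum in this class, a larger share than in the other classes of the lineage.

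From OPCs to newly formed oligodendrocytes the median fold over 14 mice was 60.7 for Mbp, 35.0 for Mag, 34.4 for Cldn11, 18.03 for Mobp and 10.6 for Cnp. It was 7.75 for Mog, 6.85 for Opalin, 2.91 for Ugt8a and 1.99 for Mal, and Mal was the only member not higher in all 14 mice (11 of 14). Folds from a class at the floor are set by that floor as well as by the gene, which touches all members but Ugt8a. With the nuclei thinned to 1000 UMIs, Mbp was seen in 66.8% ± 12.2 of newly formed oligodendrocytes, Ugt8a in 36.4% ± 13.2 and Mal in 1.79% ± 2.57. The classes came from clustering, so these steps are described and not tested.

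In the Prom1-high sub-cluster the sum of the 9 genes was 15440.5 ± 1237 CPM (SD, n = 13 mice), 174% ± 17.6 of that in oligodendrocytes, and was above it in 13 of 13 mice. Relative to their own oligodendrocyte level, Opalin was at 238% ± 46.6, Mobp at 217% ± 23.1, Mbp at 188% ± 22.5 and Cldn11 at 169% ± 26.1. Mal was at 168% ± 46.8, Cnp at 155% ± 23.6, Mog at 142% ± 19.7, Mag at 139% ± 16.4 and Ugt8a at 112% ± 16.7. All were above oligodendrocytes in 13 of 13 mice except Mal (12) and Ugt8a (10). Compared with newly formed oligodendrocytes in the 12 mice with both, the median folds were largest for Mal (28.5), Opalin (23.5) and Mog (12.1), followed by Mobp (7.65), and were between 1.87 (Ugt8a) and 2.91 (Mag) for the other members. Median depth was 5694.5, 5072 and 6153 UMIs per nucleus for NP, control RE and stress RE, above that of oligodendrocytes (2897.5, 2305 and 2368). The 14 oligodendrocyte markers went the other way. Their sums had means of 9107, 9154 and 9475 CPM in the sub-cluster, below those in oligodendrocytes (12776, 12711 and 13928 CPM).

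Outside the lineage Mal and Cldn11 each had a class above the floor. Mal was at 124 ± 57.3 CPM in endothelial cells, 20.0% of its oligodendrocyte level, and Cldn11 at 61.9 ± 23.1 CPM in vascular leptomeningeal cells, 15.0% of its oligodendrocyte level. Both were above microglia in 15 of 15 mice.

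The 2 largest sub-clusters of oligodendrocytes, one of 10199 nuclei with more Anln and Klk6 and one of 9775 nuclei with more Il33, differed in most members in 1 direction over the mice, and most of all in Opalin and Mal. Sub-clusters of 2776 and 6268 nuclei lay between these types, with Anln at 293 and 373 CPM, against 184 (Il33 type) and 660 CPM (Anln type). Their Il33 was at 510 and 498 CPM, against 542 and 284 CPM in the same order. The 2 types are thus the ends of a range. Opalin was at 212 CPM in the Anln type and 422 CPM in the Il33 type, a log2 difference of -0.99 ± 0.11 (SD, n = 15), and Mal at 539 and 744 CPM, a log2 difference of -0.47 ± 0.09. Both were lower in the Anln type in 15 of 15 mice, and Cnp (-0.15 ± 0.12) in 14. Ugt8a was higher in the Anln type, at 857 against 716 CPM (0.26 ± 0.06), as were Mobp (0.18 ± 0.08), Mbp (0.16 ± 0.03), Mog (0.15 ± 0.07) and Mag (0.08 ± 0.06), each in 15 of 15 mice. Cldn11 was about level (-0.04 ± 0.09; higher in 6 of 15). The 9-gene sum was 9134 CPM in the Anln type and 8763 in the Il33 type, so the types differed more in the mix of myelin genes than in their total.

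**Figure D2:**
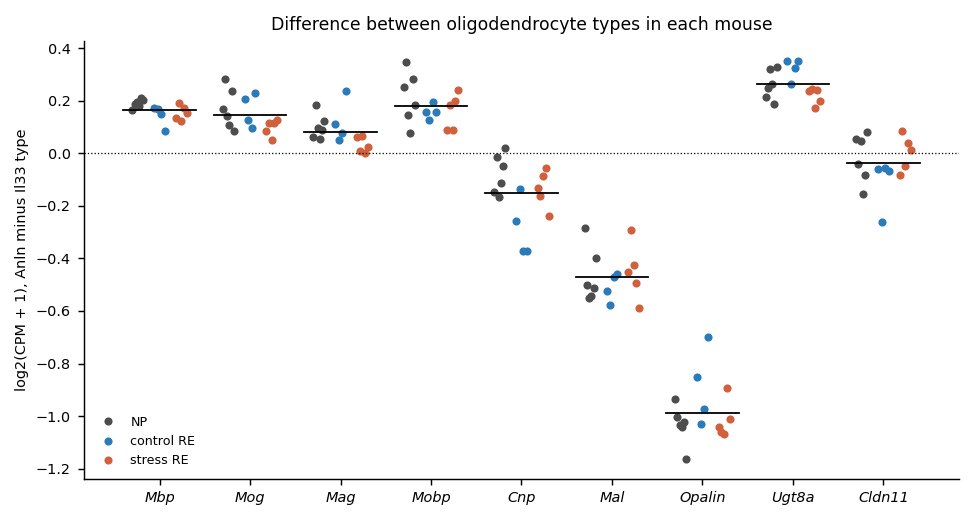
Log2 difference in CPM between the Anln type and the Il33 type of oligodendrocytes for each myelin gene, 1 point per mouse, coloured by group. Opalin and Mal lie below 0 in all 15 mice and Mbp, Mog, Mag, Mobp and Ugt8a above 0 in all 15.

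An exact permutation test (two-sided, permuting mice between groups) asked whether this difference depended on the group, for 9 genes and 3 contrasts. None of the 27 tests passed 0.05 after adjustment over them, with 6 below 0.05 unadjusted. No share over all genes is at hand for this difference, and the contrasts share mice, so that count has no background to be read against. The smallest exact p these group sizes allow is 0.0159 for stress RE against control RE, 0.00952 for control RE against NP and 0.00433 for stress RE against NP, so 1 gene alone could not pass (adjusted, 0.429, 0.257 and 0.117). The lowest was for Ugt8a, whose difference was 0.22 ± 0.03 in stress RE (n = 5) and 0.32 ± 0.04 in control RE (n = 4), a change of -0.10 (exact permutation p = 0.0159, unadjusted, the smallest possible). The values of these groups did not overlap, at 0.17 to 0.25 in stress RE and 0.26 to 0.35 in control RE, while NP at 0.19 to 0.33 overlapped both. How often groups lie apart in this way over all genes was not tested.

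The study asked how reproductive experience and stress in the postpartum period leave their mark on gene expression, and the group comparisons of the members in oligodendrocytes follow. They used edgeR's quasi-likelihood test on counts summed per mouse, adjusted over all genes tested (Benjamini-Hochberg). No member was called in oligodendrocytes at an adjusted p below 0.05 in any contrast, nor was any of the 13732 genes tested (percent called, 0 in each of the 3 contrasts). At an unadjusted p below 0.05 edgeR gave 0 of 9 members for control RE against NP, where 1.97% of all genes were below it. For stress RE against control RE it gave 2 of 9 (all genes, 3.42%) and for stress RE against NP 2 of 9 (all genes, 4.6%). Without the 2 libraries that stand apart it gave 1 of 9 in either of these (all genes, 2.42% and 2.38%). DESeq2 called no member in any class or contrast, and gave 0, 2 and 2 members at an unadjusted p below 0.05. The contrasts share mice: the control RE mice enter both comparisons that name them, and so do the NP and the stress RE mice.

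Ugt8a had the smallest p among the members. It was at 628 to 900 CPM in the 6 NP mice with a median of 733, at 803, 777, 698 and 571 CPM in control RE and at 1002, 790, 931, 954 and 856 CPM in stress RE. Of the stress RE mice, 4 of 5 lay above all 4 control RE mice, while the groups still overlapped. The log2 difference between stress RE and control RE was 0.34 (95% interval 0.09 to 0.58; edgeR adjusted p = 0.997) and that between stress RE and NP was 0.29 (0.07 to 0.50; edgeR adjusted p = 1.00). Without the 2 libraries that stand apart these were 0.34 and 0.24. Within batch 2 the former was 0.43 and within batch 3 it was 0.33.

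Mog, the protein of the sheath's outer surface, was at 580 to 768 CPM in NP with a median of 625. It was at 691, 714, 688 and 611 CPM in control RE and 748, 784, 919, 737 and 665 CPM in stress RE, where the highest value was that of replicate 3. Its log2 difference between stress RE and NP was 0.24 (0.06 to 0.42), 0.16 without the 2 libraries that stand apart. Opalin was at 247 to 365 CPM in NP with a median of 341, at 346, 292, 331 and 261 CPM in control RE and at 381, 381, 382, 390 and 308 CPM in stress RE. In 4 of 5 stress RE mice Opalin lay above all control RE and NP mice. Its log2 difference between stress RE and control RE was 0.25 (0.00 to 0.50).

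For the other 6 members the 95% interval covered 0 in all 3 contrasts. Mbp was at 2887 to 4511 CPM in NP with a median of 3429, at 3804, 3775, 3725 and 2981 CPM in control RE and at 4377, 3836, 5156, 3443 and 3029 CPM in stress RE. The groups overlapped, with the highest 2 values in stress RE replicate 3 and NP replicate 4, and the means were 3544 ± 619, 3571 ± 395 and 3968 ± 830 CPM (SD). Mobp was the member that was lower in stress RE than in both other groups, at 1107 ± 150 CPM against 1228 ± 39.7 in control RE and 1182 ± 127 in NP (log2 differences of -0.16 and -0.09). Cnp had the widest intervals: at 249 ± 97.3 CPM in control RE and 376 ± 135 in stress RE its log2 difference was 0.58 (-0.03 to 1.20). Over the 9 members the median log2 difference was -0.05 for control RE against NP (3 of 9 above 0), 0.19 for stress RE against control RE (8 of 9) and 0.16 for stress RE against NP (8 of 9), where the medians over all genes tested lay within 0.01 of 0. Without the 2 libraries that stand apart these were -0.10 (3 of 9), 0.16 (8 of 9) and 0.04 (8 of 9). The 8 neuron markers summed to 484 to 1368 CPM in oligodendrocytes, with group means of 1017 CPM (NP), 997 CPM (control RE) and 804 CPM (stress RE). The 7 OPC markers had means of 257, 217 and 175 CPM in the same order. Highest in stress RE were the 14 oligodendrocyte markers (12776, 12711 and 13928 CPM) and the choroid plexus markers (65.7, 46.2 and 95.1 CPM). So were the 3 lineage markers (302, 270 and 315 CPM) and the ependymal markers (6.55, 5.94 and 7.27 CPM). The median over mice of the mitochondrial share of UMIs in oligodendrocytes was 0.0571%, 0.0721% and 0.108%. Clustering of all nuclei gave 2 oligodendrocyte clusters, and the larger held a median of 83.5%, 62.6% and 42.3% of a mouse's oligodendrocytes. This share ran from 3.73% (stress RE replicate 3) to 98.9% over mice. The part of these in the differences was not tested.

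**Figure D3:**
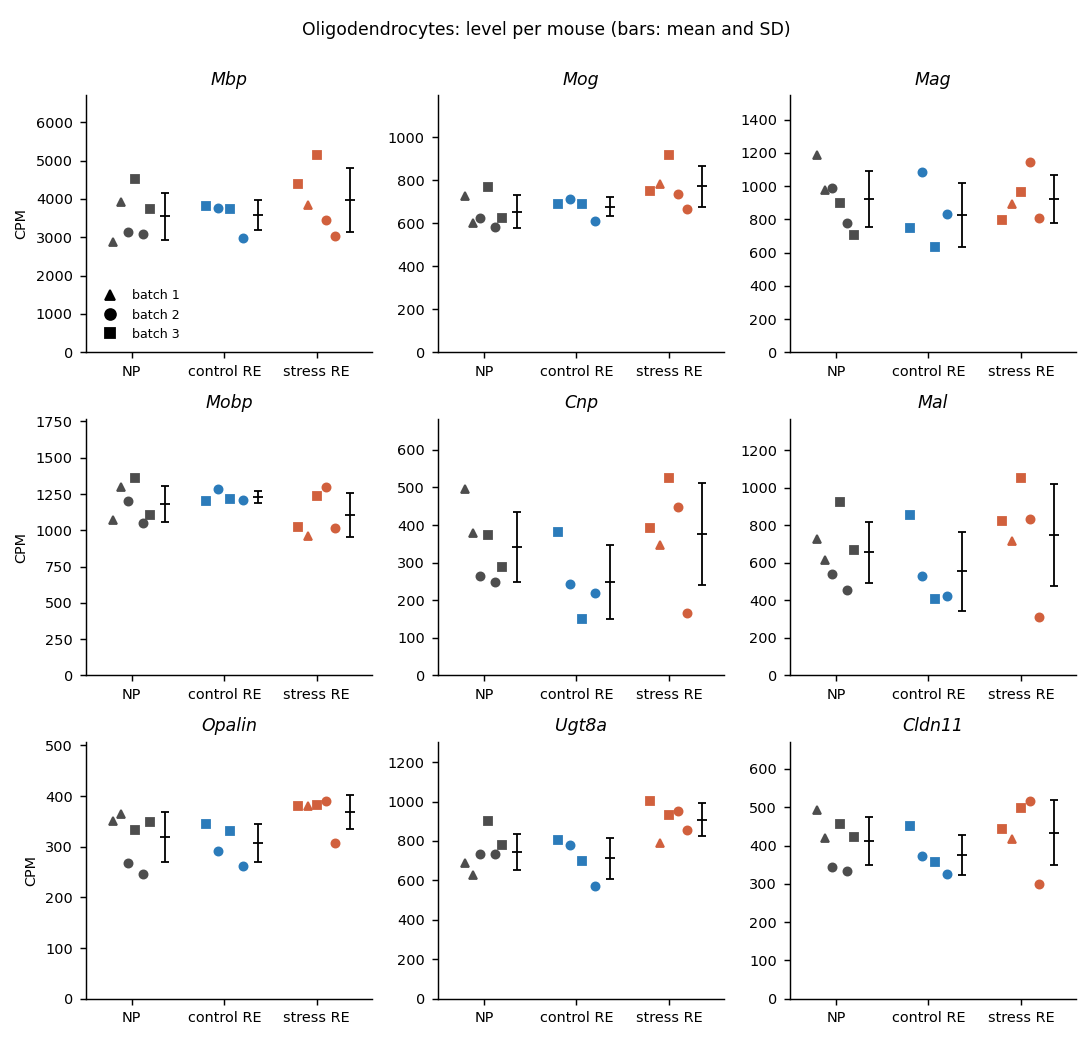
Level of each myelin gene in oligodendrocytes (CPM) for each mouse of NP, control RE and stress RE, with the mean and SD as bars. Groups overlap for all 9 genes, and Ugt8a in stress RE (790 to 1002 CPM) lies mostly above control RE (571 to 803 CPM).

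Genes that work with the members were read from lists of other myelin proteins (22 genes), myelin lipid enzymes (8) and transcription factors of the lineage (11), and none of them was called in oligodendrocytes by edgeR. For stress RE against control RE 21 of 22 other myelin proteins lay above 0 with a median log2 difference of 0.24, and 7 had an unadjusted p below 0.05 (all genes, 48.3% above 0 and 3.42% below 0.05). For control RE against NP 4 of the 22 lay above 0 (median -0.14; 0 below 0.05), and for stress RE against NP 18 did (median 0.09; 1 below 0.05), where 50.6% of all genes lay above 0 in either contrast. Control RE thus lay below NP, and stress RE above NP, in the medians behind the difference between them. Of the lipid enzymes 7 of 8 lay above 0 (median 0.19; 2 below 0.05), and of the transcription factors 9 of 11 (median 0.09; 0 below 0.05). Against NP the lipid enzymes had medians of -0.12 (control RE, 1 of 8 above 0) and 0.08 (stress RE, 5 of 8), and the transcription factors -0.08 (2 of 11) and 0.08 (7 of 11). Without the 2 libraries that stand apart, 19 of the 22 other myelin proteins (median 0.20; 4 below 0.05), 7 of 8 lipid enzymes (0.11; 2) and 9 of 11 transcription factors (0.12; 0) lay above 0 for stress RE against control RE. Against NP the medians for stress RE were then 0.07 (17 of 22), 0.05 (4 of 8) and 0.03 (8 of 11). The smallest p on these lists for stress RE against control RE was that of Lpar1, a lysophosphatidic acid receptor of oligodendrocytes, with a log2 difference of 0.37 (0.17 to 0.57; edgeR adjusted p = 0.997). Tcf7l2, a transcription factor of differentiating oligodendrocytes, had log2 differences of -0.41 (-0.68 to -0.14) for control RE against NP and -0.37 (-0.62 to -0.12) for stress RE against NP, both at an edgeR adjusted p of 1.00. Among listed genes above 0, the smallest p for stress RE against NP was that of Lpar1 (0.23, 0.05 to 0.41). For control RE against NP it was that of St18 (0.09, -0.09 to 0.27). Among those below 0, the smallest p for stress RE against control RE was that of Elovl1 (-0.11, -0.53 to 0.32). DESeq2 called 5 genes in oligodendrocytes for stress RE against control RE, none of them on these lists.

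In newly formed oligodendrocytes 7 of the 9 members were tested, Mal and Opalin not passing the filter on low counts, and none was called by edgeR (percent called, 0 of 3369 genes in each contrast). This depended on the filter on low counts: with none, edgeR called Mobp for stress RE against NP (log2 difference 1.95; edgeR adjusted p = 8.2e-08) and against control RE (1.42; 0.00332), and Cldn11 for stress RE against NP (1.04; 0.0445), where 0.406% and 0.0508% of 17721 genes were called against NP and against control RE. With no filter and without the 2 libraries that stand apart, Mobp was called against NP (1.76; edgeR adjusted p = 8.4e-05; percent called, 0.0806 of 17371 genes) and no member was called against control RE. For stress RE against NP 5 of 7 had an unadjusted p below 0.05, where 8.64% of all genes did, and all 7 lay above 0 with a median log2 difference of 0.85, against 0.02 over all genes. For stress RE against control RE 3 of 7 were below 0.05 (all genes, 3.83%) with a median of 0.65, and for control RE against NP 0 of 7 (all genes, 2.73%) with a median of 0.33, which was -0.04 with batch as a term. With doublets kept the class was clustered anew, with no Prom1-high sub-cluster set apart. There 8 of 9 members were below 0.05 both against NP (all genes, 12.2%; median 1.05) and against control RE (all genes, 6.97%; median 1.00). The fit with doublets removed used 14 mice with 15 to 33 newly formed nuclei each, since NP replicate 4 had 6.

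Mobp had the largest difference. It was at 64.5, 183, 131, 227 and 315 CPM in the 5 NP mice, at 44.1, 110, 364 and 518 CPM in control RE and at 692, 112, 1012, 330 and 1332 CPM in stress RE. The stress RE mice thus spanned 112 to 1332 CPM, with 3 of 5 above all other mice. The log2 difference between stress RE and NP was 2.01 (0.72 to 3.29; edgeR adjusted p = 0.416), and that between stress RE and control RE was 1.50 (0.16 to 2.83; edgeR adjusted p = 0.999). For stress RE against NP the log2 difference was 1.08 for Cldn11 (edgeR adjusted p = 0.416), 0.94 for Mag (0.518), 0.85 for Ugt8a (0.434) and 0.82 for Mbp (0.518). Ugt8a was at 221, 212, 380, 392 and 537 CPM in NP and at 458, 326, 846, 570 and 760 CPM in stress RE, and its highest values were those of replicates 3 and 5. Cldn11 and Mag ran from 191 to 651 CPM and from 239 to 1029 CPM in stress RE, and both were highest in replicates 3 and 5.

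Those 2 stress RE mice also differed from the rest in the markers of the stage. Their 9-gene sums in newly formed oligodendrocytes were 12991 and 10290 CPM, against 2416 to 6908 CPM in the other 12 mice, while the sums of the 7 OPC markers were 7844 and 5460 CPM against 10286 to 14331 CPM. Prom1 was at 515 and 842 CPM in them, against 32.7 to 281 CPM. The sums of the 10 markers of newly formed oligodendrocytes were also lowest there, at 12742 and 10960 CPM against 13494 to 18280 CPM. Those of the 14 oligodendrocyte markers were 5590 and 4700 CPM, against 2858 to 5329 CPM. Most of the OPC marker sum was Tnr, with means of 10154 CPM (NP), 9699 CPM (control RE) and 8847 CPM (stress RE). Tnr was at 9626 CPM in this class and 5051 CPM in OPCs, and Pdgfra at 4.06 and 766 CPM. The sum is therefore no measure of OPC signal alone. In the 2 mice the class held nuclei with lower sums of the OPC markers and of the newly formed markers, and more Prom1. The part of this in the group difference was not tested. The 8 neuron markers were also lowest in stress RE, with means of 696 CPM (NP), 616 CPM (control RE) and 377 CPM (stress RE). So were the 9 microglia markers (108, 140.1 and 55.8 CPM in the same order) and the 8 astrocyte markers (196, 167 and 118 CPM). Choroid plexus markers were highest in stress RE (11.9, 22.5 and 41.1 CPM), as were those of pericytes and border-associated macrophages. The 14 oligodendrocyte markers (3834, 4485 and 4789 CPM) and the 3 lineage markers (416, 419 and 453 CPM) were highest in stress RE as well. The part of these markers was not tested either. For stress RE against NP without replicate 3, 3 of 7 members had an unadjusted p below 0.05 (all genes, 5.69%) with a median of 0.67, and Cnp turned to -0.13, so that 6 of 7 lay above 0. Without replicate 5 it was also 3 of 7 (all genes, 6.9%) with a median of 0.69, and without the 2 libraries that stand apart 2 of 7 (all genes, 3.78%) with a median of 0.57. Against control RE it was 0 of 7 without replicate 3 (all genes, 2.3%; median 0.32), 1 of 7 without replicate 5 (all genes, 4.04%; median 0.51) and 0 of 7 without control RE replicate 1 (all genes, 3.08%; median 0.51). Without the 2 libraries that stand apart it was 0 of 7 (all genes, 2.72%; median 0.31).

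**Figure D4:**
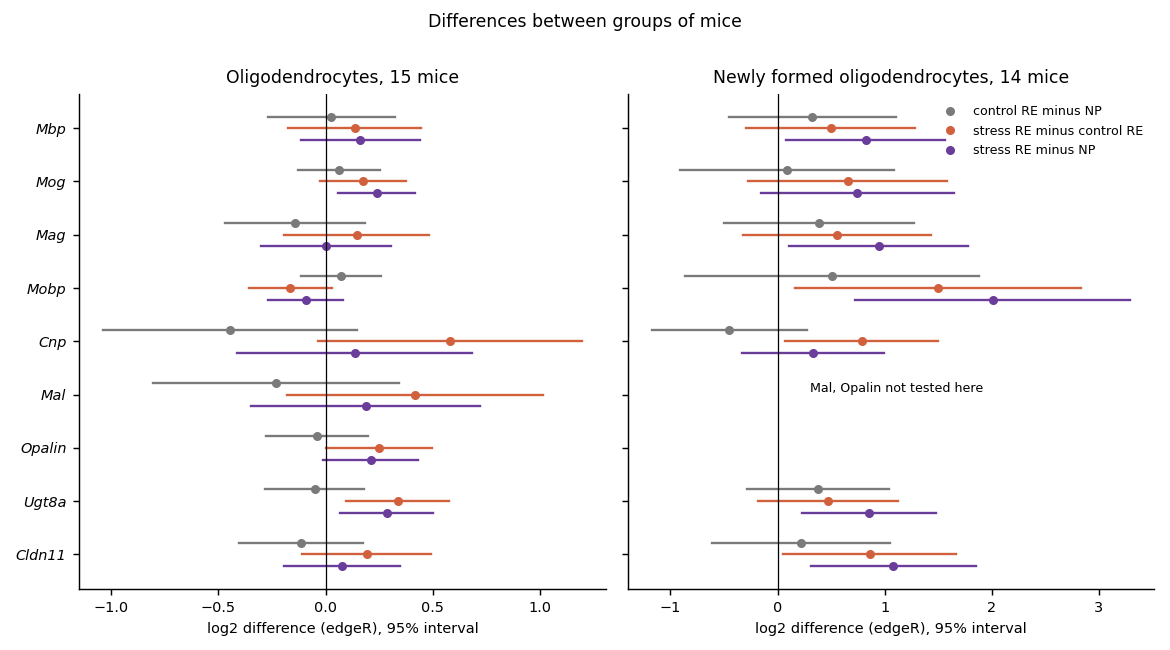
Log2 difference between groups with its 95% interval (edgeR) for each myelin gene in oligodendrocytes and in newly formed oligodendrocytes. Most intervals cover 0 in oligodendrocytes, and Mobp in newly formed oligodendrocytes has the largest difference, 2.01 for stress RE against NP.

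In OPCs 8 of 9 members were tested and none had an unadjusted p below 0.05 with edgeR in any contrast, where 3.41%, 2.73% and 3.88% of all genes were below it for control RE against NP, stress RE against control RE and stress RE against NP (percent called, 0). Ugt8a in OPCs was at 134 ± 25.1 CPM (NP), 145 ± 9.29 CPM (control RE) and 156 ± 12.8 CPM (stress RE), with a log2 difference of 0.23 (-0.02 to 0.48) between stress RE and NP. In the Prom1-high sub-cluster none of the 9 was below 0.05 either (all genes, 3.63%, 5.01% and 6.62% in that order). There the medians were 0.01, 0.16 and 0.14 for control RE against NP, stress RE against control RE and stress RE against NP, and 0.23 and 0.16 for the latter contrasts without the 2 libraries that stand apart. Of the floor classes, neurons gave 0 of 9 members below 0.05 in all contrasts (all genes, 3.5%, 0.726% and 2.97%), and microglia (all genes, 2.51%, 3.27% and 5.4%) gave 1 of 8, Mog for stress RE against control RE (0.73, 0.00 to 1.45; edgeR adjusted p = 1.00).

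The members leaned the same way outside mature oligodendrocytes in the comparison of stress RE with control RE, floor classes included. Above 0 were 9 of 9 members in neurons (median 0.10), 7 of 8 in microglia (0.24) and 8 of 8 in OPCs (0.37), where 48.2%, 48.3% and 49.8% of all genes were. Against NP, stress RE had 3 of 9 (-0.06), 5 of 8 (0.14) and 7 of 8 (0.24), and control RE 1 of 9 (-0.29), 1 of 8 (-0.22) and 3 of 8 (-0.10). Without the 2 libraries that stand apart, the comparison with control RE gave 2 of 9 in neurons (-0.06), 6 of 8 in microglia (0.10) and 2 of 7 in OPCs (-0.04), against 8 of 9 in oligodendrocytes. The comparison of stress RE with NP then gave 0 of 9 (-0.27), 3 of 8 (-0.05) and 1 of 7 (-0.08), so its direction turned in microglia and OPCs. The part of free RNA in the differences within the lineage was not tested.

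The shares of nuclei in these classes did not differ detectably between groups. Their numbers had a median of 1643 oligodendrocytes (1134 to 2116) in NP, 2228.5 (1956 to 2550) in control RE and 1656 (962 to 3432) in stress RE, where the nuclei kept per mouse had medians of 7361.5, 9670 and 7878. Oligodendrocytes were 22.7% ± 3.09 of all nuclei in NP (n = 6), 22.8% ± 1.79 in control RE (n = 4) and 23.8% ± 6.74 in stress RE (n = 5). Newly formed oligodendrocytes were 0.920% ± 0.347, 1.10% ± 0.197 and 1.13% ± 0.266 of the lineage. Two-sided exact permutation tests gave an adjusted p of 0.962 for all 6 comparisons. At these group sizes 1 comparison alone could reach an adjusted p of 0.0952 (stress RE against control RE), 0.0571 (control RE against NP) or 0.0260 (stress RE against NP), so only the last could pass by itself. With doublets kept the newly formed share was 1.50% ± 0.220 in stress RE (n = 5) and 1.10% ± 0.189 in NP (n = 6), a difference of 0.403 points against 0.210 with doublets removed (exact permutation p = 0.0130, adjusted p = 0.0779). The class was clustered anew with doublets kept, so these shares are not of the same class.

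Myelin gene counts in neurons varied with the oligodendrocyte RNA in the library. The 9-gene sum in neurons ran from 71.7 to 145 CPM and the oligodendrocyte share of a library's UMIs from 5.80% to 11.0%, with Pearson's r of 0.836 and Spearman's rho of 0.861 over 15 mice. Without the 2 mice farthest from the median share r was 0.780, and it was 0.878 within batch 2 and 0.895 within batch 3 (6 mice each). For microglia in place of neurons r was 0.672. The points share the library, since both values come from the same reads of a mouse.

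**Figure D5:**
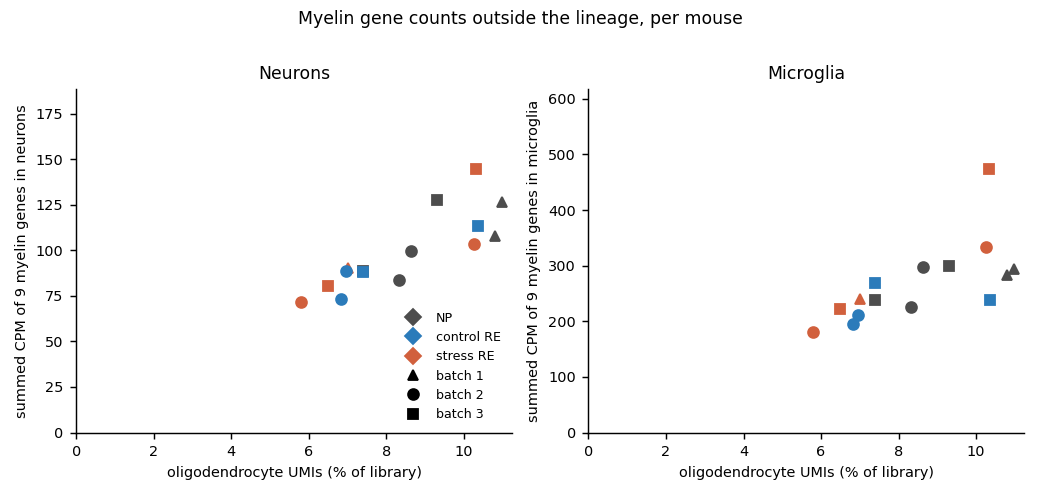
Summed level of the 9 myelin genes in neurons and in microglia (CPM) against the oligodendrocyte share of all UMIs in the library (percent), 1 point per mouse, coloured by group. Values in neurons (71.7 to 145 CPM) go up with the share (r = 0.836), and microglia lie higher at 181 to 475 CPM.

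Among oligodendrocytes of the 15 mice, Cnp and Mal varied most, with a highest level 3.51-fold and 3.36-fold the lowest, against 1.41-fold (Mobp) to 1.87-fold (Mag) for the other 7. Cnp was at 248 to 496 CPM in NP with a median of 331, at 382, 242, 150 and 220 CPM in control RE and at 393, 348, 525, 448 and 165 CPM in stress RE. Mal was at 457 to 927 CPM in NP with a median of 643, at 857, 532, 407 and 424 CPM in control RE and at 826, 718, 1054, 837 and 313 CPM in stress RE. Both genes were thus spread widely within control RE and within stress RE, and stress RE replicate 5 was low for both. Stress RE replicate 3 was the highest mouse for Mbp, Mog, Cnp and Mal. Of 36 pairs of members 33 had r above 0 over the mice, with a median of 0.52. Mal, Cnp and Cldn11 moved together most closely, with r of 0.926 for Mal and Cldn11 (rho 0.911), 0.912 for Cnp and Mal (rho 0.889) and 0.900 for Cnp and Cldn11 (rho 0.896). Within batches 2 and 3 their r lay between 0.945 and 0.990, and without the 2 mice farthest from the median between 0.870 and 0.938.

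Mbp and Mag had a pooled r of the opposite sign to that within batch 2 and within batch 3. It was -0.10 over all 15 mice (rho -0.08), but 0.817 within batch 2 and 0.930 within batch 3. In batch 3 Mbp ran from 3725 to 5156 CPM and Mag from 636 to 962 CPM, and in batch 2 Mbp ran from 2981 to 3775 CPM and Mag from 778 to 1148 CPM. Batch 3 thus held higher Mbp with lower Mag, and within each of these batches the mice with more Mbp held more Mag. Batch 1 did not share this direction. There Mbp was at 2887, 3917 and 3836 CPM in NP replicates 1 and 2 and stress RE replicate 2. Mag was at 1190, 977 and 894 CPM in the same order. Pooled values of this pair cannot be read without the batch. No p is given for these pairs, since levels in a library share its depth and its scaling.

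Over 11 cell classes, and among 7911 other genes, Otud7b (r = 0.976), Cdc37l1 (0.972) and Tnni1 (0.965) were among the 5 whose pattern was most like that of the 9-gene sum on the log2 scale. Over the 15 mice in oligodendrocytes, and among 3483 genes, these were Dbndd2 (r = 0.938), Shisa4 (0.924), Cpox (0.914), Eid1 (0.912) and Ndrg1 (0.911). The lists have no gene in common.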

How the data were processed

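Single nuclei from dHF tissue were profiled with a droplet 3′ kit (10x Genomics), and the authors deposited for each of 15 mice a matrix of UMI counts per gene and nucleus, made with Cell Ranger on the mm10 reference (GRCm38). The version is 7.1.0 in the submitters' processing notes, which also name GRCm39 and Seurat, and 7.0.0 in the file headers. Whether intronic reads were counted is not given in the sources used here. The matrices had nuclei called but no correction for free RNA and no doublet removal. Barcodes with at least 200 genes and at most 5% mitochondrial UMIs were kept, and the barcodes with the highest Scrublet doublet scores were removed, 0.8% of barcodes per 1000 barcodes (263 to 1298 per library). Nuclei were clustered with scanpy (1.11.5; 2000 variable genes without the 9 members, 30 components, Leiden resolution 1) and the lineage again at 0.7, and clusters were named from marker genes. A class needed 10 nuclei in a mouse to be used.

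For each class the UMI counts of a mouse's nuclei were added up and tested with edgeR (4.0.16; filterByExpr, TMM, quasi-likelihood) over all 3 groups in 1 fit, with Benjamini-Hochberg adjustment over all genes of the class. DESeq2 (1.42.0), batch terms, each batch alone, equal numbers of nuclei, doublets kept, the members used for clustering, no filter and the omission of each mouse were alternatives. The omission of both libraries that stand apart (also with no filter), and all tests of the Prom1-high sub-cluster, were chosen after seeing the data. So were the percent levels of members in newly formed oligodendrocytes with doublets kept. On simulated counts for stress RE against NP, edgeR recovered 64% of log2 changes of 1 and 91.8% of log2 changes of 2 in oligodendrocytes (13604 genes), and 40% and 96.7% in newly formed oligodendrocytes (3171 genes). Nothing in the labels names separate litters or days, so the p-values measure the spread between these mice. The members and gene lists were chosen with earlier results of these data known. All 9 members are named throughout. Of the other lists, genes called and the smallest p in each direction are named, and by likeness the top 5, of which 2 are not reported here. Thinning drew 1000 UMIs per nucleus.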

Additional observations from a re-analysis of the deposited data

Results flagged for a closer look

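Of 63 sets of 4 to 6 mice of a group, 54 of them for 1 member in 1 class and 9 for a share of nuclei or the 9-gene sum in neurons, 5 held a mouse far from the others, and chance alone gives about 1 in 20. In oligodendrocytes, Mbp was at 2981 CPM in control RE replicate 4, below the 3725 to 3804 CPM of the other control RE mice. Mobp was at 1287 CPM in control RE replicate 2, above 1201 to 1213 CPM in the others of its group. Opalin was at 308 CPM in stress RE replicate 5, below 381 to 390 CPM in the other stress RE mice. In newly formed oligodendrocytes, Cnp was at 651 CPM in stress RE replicate 3, above 196 to 302 CPM in the other stress RE mice, and this library is one of those that stand apart. Mal was at 46.9 CPM in NP replicate 6, above 11.9 to 21.2 CPM in the other NP mice, on few UMIs per mouse.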

How the results depend on the processing

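Counts of members called were 0 under all alternatives in all classes, except that edgeR with no filter on low counts called 1 in newly formed oligodendrocytes for stress RE against control RE (Mobp, log2 difference 1.42, edgeR adjusted p = 0.00332) and 2 for stress RE against NP (Mobp, 1.95, 8.2e-08; Cldn11, 1.04, 0.0445). Without the libraries that stand apart as well, an alternative chosen after seeing the data, it called 1 for stress RE against NP (Mobp, 1.76, 8.4e-05). The cause was not tested. Of the members' log2 differences, 1113 kept their direction and side of the threshold and 35 changed sign, none of them called. No paired analysis was possible because the replicate numbers only follow the order of the samples and pair no mice.

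In oligodendrocytes for control RE against NP, batch 3 alone gave -0.12 for Mbp, -0.0064 for Mog and -0.025 for Mobp. Batch 2 alone gave 0.12 for Mag, 0.10 for Opalin and 0.041 for Cldn11, and batch as a term 0.028 for Opalin. Batch 2 alone gave -0.059 for Mbp (stress RE against control RE) and 0.036 for Mobp (stress RE against NP). In newly formed oligodendrocytes for control RE against NP, batch 3 alone gave -0.23 for Mbp, -0.23 for Mag, -0.64 for Mobp and -0.31 for Ugt8a. Batch as a term gave -0.056 for Mog, -0.052 for Mobp and -0.043 for Cldn11, equal numbers of nuclei -0.092 for Mog, batch 2 alone -0.044 for Cldn11 and doublets kept -0.016 for Cldn11.

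Leaving out 1 mouse at a time, the log2 differences in oligodendrocytes for control RE against NP ran from -0.025 to 0.10 for Mbp, from -0.10 to 0.030 for Opalin and from -0.10 to 0.041 for Ugt8a, and for stress RE against NP from -0.080 to 0.095 for Mag. In newly formed oligodendrocytes they ran from -0.23 to 0.39 for Mog and from -0.081 to 0.89 for Mobp (control RE against NP) and from -0.13 to 0.49 for Cnp (stress RE against NP; lowest without stress RE replicate 3).

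In percentage points, the newly formed share for stress RE against control RE was -0.0366 in batch 2, -0.0971 in batch 3 and -0.00591 with the Prom1-high sub-cluster, and ran from -0.0668 to 0.114 without 1 mouse. The oligodendrocyte share for control RE against NP was -0.769 with doublets kept, -0.179 with the members used for clustering, -1.75 in batch 2 and -0.894 without the libraries that stand apart. Without 1 mouse it ran from -0.894 to 0.933, and for stress RE against control RE from -1.04 to 2.54 and against NP from -0.950 to 2.64. Without those libraries it was -0.559 for stress RE against control RE and -1.45 against NP. With doublets kept, where the class was clustered anew, newly formed oligodendrocytes held 21.9% (Mog) and 26.3% (Opalin) of the oligodendrocyte level. Thinned to 500 UMIs, Ugt8a was seen in 7.35% of OPCs, 18.4% of newly formed oligodendrocytes and 0.416% of neurons, and Mbp in 3.01% of neurons. With 15 to 33 newly formed nuclei per mouse, the counts of Mal and Opalin there did not pass the filter, and both were tested only under alternatives.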
